A study of Mus musculus with 6 samples.

Results

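The 9 genes described here encode digestive enzymes of the brush border, the carpet of microvilli on the absorptive cells of the small intestine, and their rows were found in the gene count table by symbol. All 9 were present among 28564 gene rows, and all 9 were among the 15122 rows that passed the filter on low counts. They were Sis, Lct and Treh, which encode enzymes that split disaccharides, Anpep, Enpep and Dpp4, which encode peptidases that trim peptides from the amino end, Mep1a and Mep1b, which encode the subunits of the meprin metalloproteases, and Alpi, which encodes the intestinal alkaline phosphatase. RNA came from epithelial cells of small intestinal crypts, sorted as live single cells with EpCAM and CD44 on their surface and without CD31 and CD45. The samples came from male mice aged 13 weeks. There were 3 samples from wild-type controls (C57Bl/6) and 3 from Apln-/- mice, which lack the gene for the secreted peptide apelin. The labels name no cell type to which the deletion is limited and call the samples biological replicates. The comparison of the genotypes asks how crypt epithelium differs without apelin.

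Brush border enzymes carry out the last step of digestion at the cell surface, where sugars and peptides are cut to units that neighbouring carriers take up. Their genes are switched on as cells leave the crypt and mature into enterocytes on the villus, under factors that include HNF4A, CDX2 and GATA4. Several of them differ along the length of the gut, lactase being a classical gene of the proximal part of the intestine. Crypts hold stem cells, dividing progenitors and Paneth cells beside such early enterocytes. In bulk RNA of such a sort, fewer cells of a type and less RNA per cell cannot be told apart.

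Sequences upstream of Sis, Lct and Alpi are shown first, since Sis and Lct lay farthest apart in their levels across libraries and since these 3 windows held matches to short motifs of the factors named above. RefSeq promoter windows (GRCm38.p6, 250 bases before to 50 after a start site) were found for 8 of the 9 genes, all but Mep1b. The 250 bases before the start are printed 5′ to 3′ on the strand of the gene, which is the minus strand in all 3, with motif matches in capitals.
Sis, chr3:72967864-72968113: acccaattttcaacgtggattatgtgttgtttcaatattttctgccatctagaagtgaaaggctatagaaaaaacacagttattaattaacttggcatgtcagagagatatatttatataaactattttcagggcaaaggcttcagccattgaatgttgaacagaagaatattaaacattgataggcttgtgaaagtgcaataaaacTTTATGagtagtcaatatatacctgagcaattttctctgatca
Lct, chr1:128328319-128328568: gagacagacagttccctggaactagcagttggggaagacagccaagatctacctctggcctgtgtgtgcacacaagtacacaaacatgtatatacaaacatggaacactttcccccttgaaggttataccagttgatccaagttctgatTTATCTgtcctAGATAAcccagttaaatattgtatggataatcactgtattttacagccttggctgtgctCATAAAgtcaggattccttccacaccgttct
Alpi, chr1:87101607-87101856: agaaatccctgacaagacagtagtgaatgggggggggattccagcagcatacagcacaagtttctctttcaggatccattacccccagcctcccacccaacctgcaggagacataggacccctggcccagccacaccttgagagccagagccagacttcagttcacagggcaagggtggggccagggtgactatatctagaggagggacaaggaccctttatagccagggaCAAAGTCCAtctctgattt
The window of Sis held 1 match to the CDX motif TTTATG, 43 bases before the start. In the window of Lct there were 2 matches to the GATA motif AGATAA, 101 and 90 bases before the start, and 1 match to the CDX motif at 31 bases. Alpi had 1 match to the HNF4 motif CAAAGTCCA, 19 bases before its start.
Both strands were searched in the whole windows of 300 bases. The CDX motif was in 3 of the 8 windows (Sis, Lct and Mep1a) and in 11.9% of all 32851 windows, and the GATA motif in 2 of 8 (Lct and Dpp4) and in 11.2%. The HNF4 motif was in 2 of 8 (Alpi and Treh) and in 0.475%, and its core CAAAGTC, which lies inside it, was in the same 2 windows and in 4.44%. For Anpep and Enpep no motif of this set was found. GENCODE annotates several start sites for Anpep, and gene counts do not tell which of them was used. A match is a description of letters and not of a bound site.

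The targeted gene, Apln, gave 29, 7 and 5 counts in the wild-type libraries, in the order of their numbers. Each knockout library had 0, which allows up to 0.138 to 0.142 CPM (read counts scaled to a common library size by the trimmed mean of M-values). The libraries held 23046880 to 26513481 counts. Of these, 5144725 to 7616648 lay outside the 5 most abundant entries, which took 70.7% to 75.3% of counts in wild type and 77.3% to 78.9% in knockout. The sort markers Epcam, at 295 ± 12.9 and 309.6 ± 24.6 CPM (wild type, knockout; SD, n = 3 each), and Cd44, at 57.5 ± 5.61 and 62.2 ± 9.48 CPM, were present. Of the genes for the excluded surface proteins, Ptprc was at 2.77 ± 0.567 and 1.42 ± 0.335 CPM and Pecam1 at 0.580 ± 0.632 and 0.329 ± 0.282 CPM.

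None of the 9 enzyme genes passed the test between Apln knockout and wild type, and Anpep came nearest. The edgeR quasi-likelihood test, with Benjamini-Hochberg adjustment over all 15122 genes, called 0 of 9 members at an adjusted p under 0.05, where it called 0.172% of all genes, 0.0595% as lower in knockout. DESeq2's Wald test also called 0 of 9, with no adjusted p for 1 of them, where it called 3.84% of all genes. At an unadjusted p under 0.05 there was 1 of 9, Anpep, against 15.2% of all genes, 7.66% as lower in knockout. The fitted log2 fold change, knockout over wild type, was positive for 7 members and negative for 2, with a median of 0.19 where the median over all genes tested was -0.01. Single libraries moved the members' median: it was 0.022, with 5 members positive, without knockout library 2, 0.0833 without wild-type library 1 and 0.31 without wild-type library 3. The members ran from -0.56 for Anpep to 0.51 for Treh. The 95% interval of the fold change lay inside a 2-fold change either way for 5 of the 9, namely Alpi, Sis, Dpp4, Enpep and Mep1b. For Lct, Mep1a, Treh and Anpep the interval reached past a 2-fold change in one direction.

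**Figure D1:**
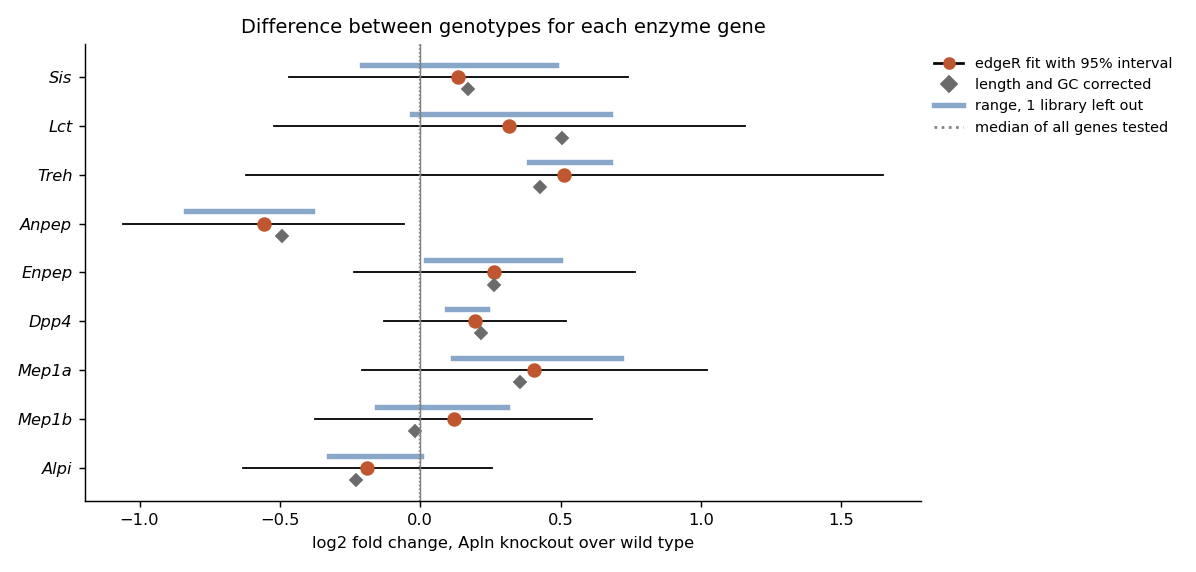
Fitted log2 fold change, Apln knockout over wild type (horizontal axis), for each of the 9 enzyme genes (vertical axis). Circles and black lines are the edgeR estimate and its 95% interval, grey diamonds the estimate with transcript length and GC content corrected for, blue bars the range when 1 library is left out, and the dotted line the median of all genes tested; the interval of Anpep alone, -1.06 to -0.06, does not reach 0, before adjustment for the number of genes.

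Among Sis, Lct and Treh, the members that encode enzymes that split disaccharides, Sis (sucrase-isomaltase) was the abundant one. Its level differed more between libraries of a genotype than between the genotype means. Sis (chr3:72888557-72967863, minus strand, mm10), which encodes the enzyme that cuts sucrose and the branch points of starch, was at 97.8, 94.7 and 173 CPM in wild-type libraries 1, 2 and 3. In knockout libraries 1, 2 and 3 it was at 91.3, 191 and 119.6 CPM. Wild-type library 3 and knockout library 2 were high, and the groups overlapped over almost their whole range. The means were 122 ± 44.6 and 134 ± 51.6 CPM (SD, n = 3 each), a log2 fold change of 0.14 (SE 0.28; edgeR adjusted p 0.868). The sign was negative without wild-type library 1, without wild-type library 2 or without knockout library 2 (-0.0161, -0.0302 and -0.21).

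Lct (chr1:128284756-128328318, minus strand), which encodes lactase, the enzyme of milk sugar that is highest before weaning, was low in all libraries. Its levels were 4.68, 6.13 and 1.96 CPM in wild type and 6.14, 6.18 and 3.54 CPM in knockout. The lowest of the 6 was wild-type library 3, one of the libraries highest in Sis, and the groups overlapped. The difference was 0.32 ± 0.39 on the log2 scale (95% interval -0.52 to 1.16), with an adjusted p of 0.749 in the edgeR test. It was -0.0279 without wild-type library 3. The log2 ratio of Sis to Lct counts accordingly ranged from 3.95 to 6.47 within wild type and from 3.89 to 5.08 within knockout.

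Treh (chr9:44673233-44686305, plus strand) encodes trehalase, which cuts the disaccharide of fungi and insects and is held to the membrane by a lipid anchor. It had 19, 19 and 30 counts in wild type and 25, 20 and 27 counts in knockout. That is 0.785 ± 0.148 and 1.124 ± 0.181 CPM (SD, n = 3 each), and the groups overlapped. With so few counts the interval of its log2 fold change, -0.62 to 1.65, was the widest of the 9. Exons of Treh overlap exons of Phldb1 on the other strand, which had 712 counts over the 6 libraries. The sources used here do not say whether the counting used strand, so reads of this overlap cannot be told apart.

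Of the peptidases that act on the amino end, Anpep had a lower mean in knockout, while the means of Enpep and Dpp4 were higher. Anpep (chr7:79821803-79861059, minus strand) encodes aminopeptidase N (CD13), which removes neutral amino acids one at a time. It was at 175, 286 and 244 CPM in wild type and at 120.3, 216 and 143 CPM in knockout. Knockout libraries 1 and 3 lay below every wild-type library, and knockout library 2 lay between wild-type libraries 1 and 3, so the groups overlapped. The means were 235 ± 56.2 and 159.8 ± 50.2 CPM (SD, n = 3 each). The log2 fold change was -0.56 ± 0.23 (SE; 95% interval -1.06 to -0.06), that is 1.47-fold lower, with an unadjusted p of 0.0319 and an adjusted p of 0.277 in the edgeR test. Over 14 alternative settings the log2 fold change stayed negative, from -0.83 to -0.39, and the adjusted p was never under 0.0563.

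Anpep is also made by myeloid cells. The 8 myeloid markers summed to 26.5, 31.0 and 19.5 CPM in wild type and 19.7, 23.8 and 19.4 CPM in knockout, and most of the sum came from Itgam, Cd14 and Cd68. Exons of Itgam overlap those of Gm49368, a protein-coding gene on the same strand, so its counts are uncertain to that extent. Itgam was at 14.5 ± 3.56 and 10.7 ± 3.07 CPM (wild type, knockout; SD, n = 3 each), with overlap, and Cd14 at 5.75 ± 0.787 and 4.10 ± 0.481 CPM, without overlap (edgeR adjusted p 0.450 and 0.391). Cd68 was at 4.32 ± 1.63 and 4.996 ± 1.17 CPM, while the macrophage marker Adgre1 and the myeloid adaptor Tyrobp had 1 count each over all libraries. The part of such cells in the level of Anpep was not tested.

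Enpep (chr3:129269175-129332720, minus strand) encodes aminopeptidase A, which removes acidic amino acids and also trims angiotensin. Its levels were 26.2, 33.0 and 44.9 CPM in wild type and 31.1, 54.8 and 39.3 CPM in knockout. As with Sis, wild-type library 3 and knockout library 2 were the highest, and the groups overlapped. The log2 fold change was 0.26 (SE 0.23; edgeR adjusted p 0.636), and 0.022 without knockout library 2. Enpep is also a gene of pericytes, and the 8 markers of stroma and pericytes summed to 31.7, 21.1 and 1.48 CPM in wild type and 11.4, 28.7 and 11.0 CPM in knockout. The sum was highest in wild-type library 1, where Enpep was lowest, and lowest in wild-type library 3, where Enpep was highest in its group. Its largest parts in wild-type library 1 were Dcn at 14.6, Col1a2 at 4.76 and Col3a1 at 4.56 CPM, while Pdgfrb and Rgs5 were at 0.754 and 0.714 CPM. Of the single markers, Acta2 reached 6.78 CPM and the pericyte gene Rgs5 4.98 CPM in knockout library 2, the library highest in Enpep, against at most 1.37 and 1.17 CPM in the others. The part of these cells in the level of Enpep was not tested.

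Dpp4 (chr2:62330073-62412231, minus strand) encodes dipeptidyl peptidase 4 (CD26), which removes pairs of residues that end in proline or alanine and inactivates gut hormones such as GLP-1. It was at 27.1, 33.3 and 32.6 CPM in wild type and at 34.2, 37.2 and 35.1 CPM in knockout. Every knockout library lay above every wild-type library; such a separation upward was seen in 11.3% of all genes tested and in 1 of the 9 members, and one downward in 9.56% of genes and 0 of 9 members. The log2 fold change was only 0.19 ± 0.15 (SE; 95% interval -0.13 to 0.52), with an adjusted p of 0.581 in the edgeR test. Dpp4 was the steadiest of the 9, with a fitted biological coefficient of variation of 0.141, a value that 2.58% of all genes did not exceed. T cells carry Dpp4 too; the T cell markers found in the table, 8 of 10, summed to 2.84 to 6.79 CPM in wild type and 2.74 to 4.80 CPM in knockout, and Cd3d had 1 count over all libraries. Their part in the level of Dpp4 was not tested. An antisense gene that overlaps an exon of Dpp4, Gm13561, had 12 counts over all libraries.

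**Figure D2:**
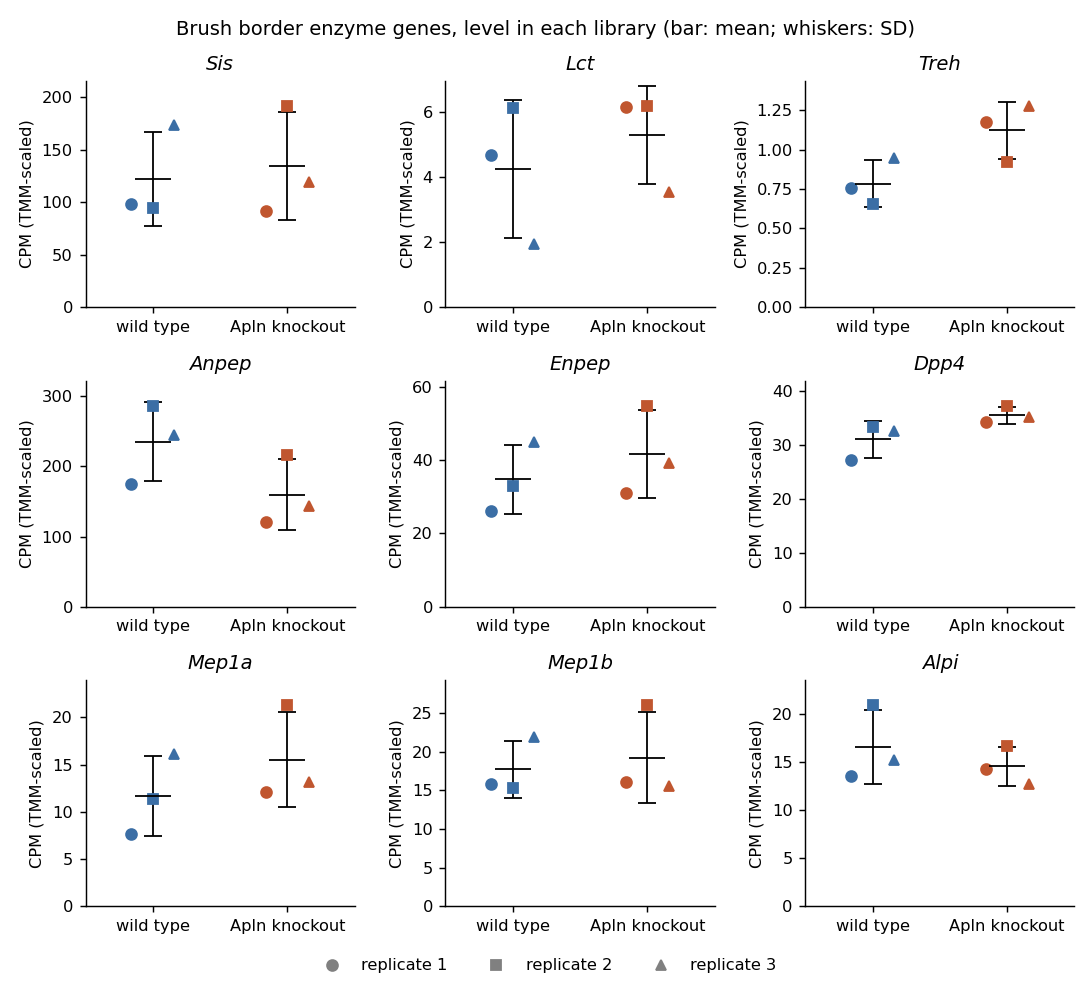
Level of each of the 9 genes (CPM, axis from 0) in the 3 wild-type and 3 Apln knockout libraries, with marker shape for the replicate number, a bar for the mean and whiskers for the SD. Wild-type library 3 and knockout library 2 are the highest of their groups for Sis, Enpep, Mep1a and Mep1b, and the groups overlap for every gene but Dpp4.

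The meprin genes were the pair whose balance was looked at within libraries. Mep1a (chr17:43474324-43502812, minus strand) and Mep1b (chr18:21061923-21100199, plus strand) encode meprin alpha and meprin beta, secreted and membrane-bound zinc proteases that form homo- and heterodimers and cut peptides and mucus proteins. Mep1a was at 7.62, 11.4 and 16.1 CPM in wild type and at 12.1, 21.3 and 13.2 CPM in knockout. Mep1b was at 15.9, 15.3 and 21.95 CPM in wild type and at 16.1, 26.0 and 15.6 CPM in knockout. Both genes were highest in knockout library 2, next in wild-type library 3, and both overlapped between the groups. Their log2 fold changes were 0.41 ± 0.28 and 0.12 ± 0.23 (SE), with adjusted p of 0.544 and 0.854 in the edgeR test.

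Counts of Mep1a per count of Mep1b were 0.480, 0.743 and 0.734 in wild-type libraries 1, 2 and 3 and 0.753, 0.819 and 0.845 in knockout libraries 1, 2 and 3. Every knockout library lay above every wild-type library in this ratio, the nearest values being 0.743 and 0.753. On the log2 scale the means were -0.64 ± 0.36 and -0.31 ± 0.09 (SD, n = 3 each), a difference of 0.33 (two-sided exact permutation test, p = 0.1, which is the lowest value 3 libraries against 3 can reach). Without wild-type library 1 the difference was 0.12. Per kilobase of transcript the level of Mep1a was 0.370 to 0.651 of that of Mep1b in every library.

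Alpi (chr1:87098002-87101606, minus strand), whose phosphatase removes phosphate from dietary compounds and from bacterial lipopolysaccharide, was at 13.5, 20.9 and 15.2 CPM in wild type and at 14.3, 16.7 and 12.7 CPM in knockout. The groups overlapped, and the log2 fold change was -0.19 (SE 0.20; edgeR adjusted p 0.718). Wild-type library 2 held the highest level, and without it the log2 fold change was 0.0038. Akp3, a second intestinal alkaline phosphatase gene of the mouse and a close relative of Alpi, had 6, 0 and 6 counts in wild type and 2, 0 and 14 in knockout. How reads that fit both genes were counted is not known here, so the counts of both are uncertain to that extent.

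Levels were compared between genes per kilobase of the longest annotated transcript. In wild type Anpep came first at 61.9 ± 14.8 CPM per kilobase and Sis second at 20.5 ± 7.50 (SD, n = 3 each), and neither overlapped its lower neighbour. A middle group followed, made up of Enpep at 8.30 ± 2.27, Mep1b at 7.74 ± 1.61, Alpi at 7.08 ± 1.64, Dpp4 at 5.89 ± 0.640 and Mep1a at 3.94 ± 1.44, in which each neighbour overlapped the next. Lct at 0.689 ± 0.343 and Treh at 0.383 ± 0.0724 lay below Mep1a and overlapped each other. In knockout the order was the same but for Dpp4, at 6.74 ± 0.297, and Alpi, at 6.22 ± 0.860, which changed places and overlapped. In knockout Anpep, at 42.1 ± 13.2, and Sis, at 22.5 ± 8.66, overlapped over the group, although Anpep was above Sis in each of the 3 libraries.

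**Figure D3:**
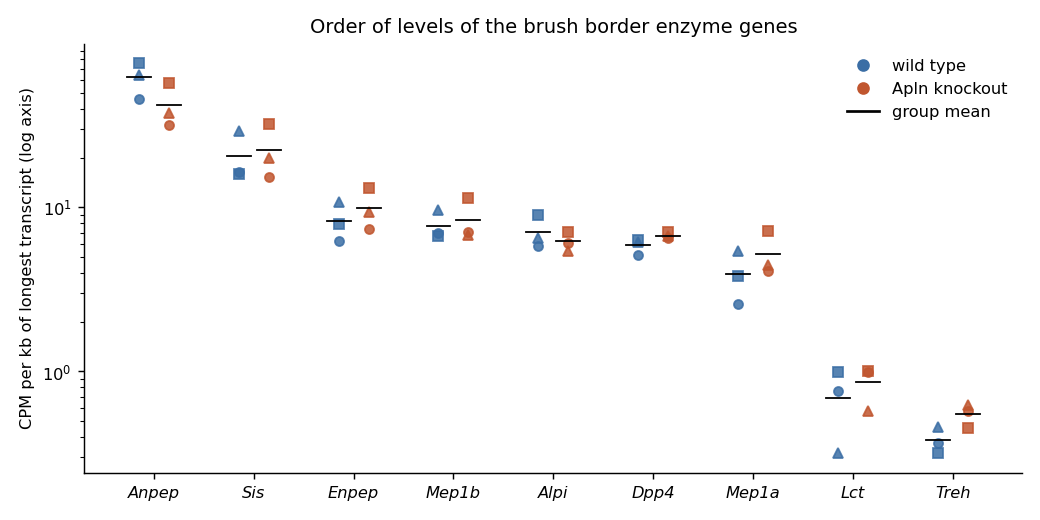
Level per kilobase of the longest transcript (log axis) for the 9 genes in order of their wild-type mean, with a point for each library (shape for the replicate number) and a black line for each group mean. Anpep and Sis stand at the top, 5 genes lie between 3.94 and 8.30 CPM per kilobase in the wild-type mean, and Lct and Treh are below 1.

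The 9 genes together took 369, 501 and 552 CPM in wild type and 327, 571 and 383 CPM in knockout. The means were 474 ± 94.6 and 427 ± 128 CPM (SD, n = 3 each), so the difference was smaller than either SD. Anpep made up 43.5% of this sum on average (36.8% to 57.1% over the libraries) and Sis 28.3% (18.9% to 33.5%). Without these 2 genes the sum was 117 ± 19.3 CPM in wild type against 133 ± 26.2 CPM in knockout. Knockout library 1 decided the sign of the difference in the sum over all 9, which was -47.1 CPM with all libraries and 2.93 CPM without it.

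Ratios of Anpep to Enpep and of Sis to Anpep were also described. The log2 ratio of Anpep to Enpep counts was 2.74, 3.12 and 2.44 in wild type and 1.95, 1.98 and 1.86 in knockout, so all knockout libraries lay below all wild-type libraries and close to one another. The log2 ratio of Sis to Anpep was -0.84, -1.60 and -0.49 in wild type and -0.40, -0.18 and -0.26 in knockout, again without overlap. Both ratios were chosen after the levels had been seen and carry no test. Anpep, the member with the lowest log2 fold change, is common to both ratios, so they cannot show which member differed from the rest.

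**Figure D4:**
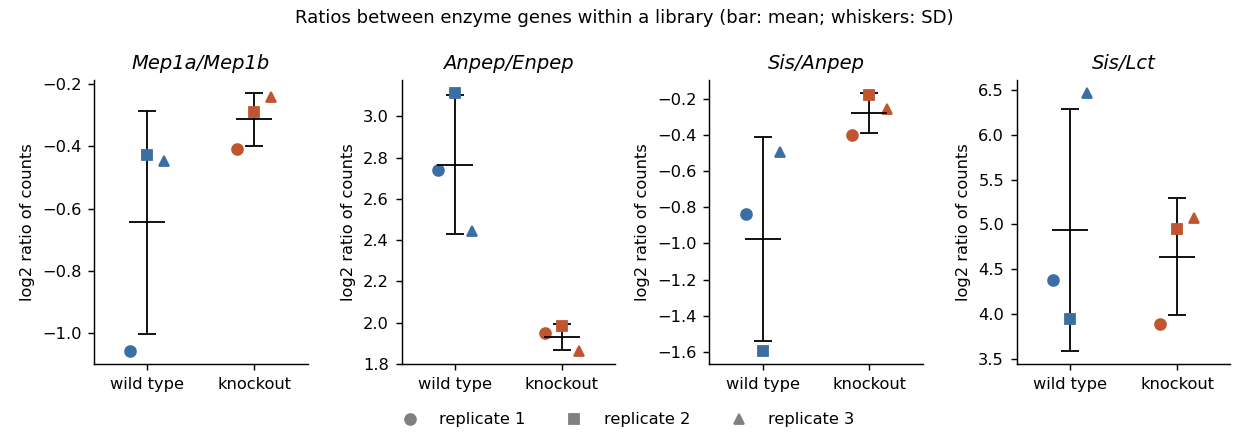
Log2 ratio of counts between pairs of enzyme genes within each library (points; shape for the replicate number), with the group mean (bar) and SD (whiskers); axes do not start at 0. The genotypes do not overlap for Mep1a/Mep1b, Anpep/Enpep and Sis/Anpep, and overlap for Sis/Lct, which is highest in wild-type library 3 at 6.47.

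Across the 6 libraries the members differed in how closely their levels varied together. In log2 CPM taken from the mean of each gene, Enpep and Mep1a were the closest of 36 pairs, with a root mean square difference of 0.142 over the 6 libraries, followed by Sis and Enpep at 0.170 and Sis and Mep1b at 0.182. The pairs did not fall into separate groups. Alpi and Dpp4 were at place 5 with 0.243, before Sis and Mep1a at 0.251. Dpp4 and Enpep followed at 0.261, before Mep1a and Mep1b at 0.268. The farthest pair was Sis and Lct at 0.863. Wild-type library 3 and knockout library 2 were the 2 highest libraries for 4 of the 9 members, Sis, Enpep, Mep1a and Mep1b, and for 6.43% of all genes tested. Within wild type, library 3 was the highest for 5 of 9 members, library 2 for 4 and library 1 for 0. Within knockout, library 2 was the highest for 8 of 9, library 3 for 1 and library 1 for 0. The shares of all genes with these orders were not counted, so these numbers only describe the members.

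The same libraries were the highest in 2 of 5 tested genes of the distal small intestine, Fabp6 and Slc10a2. Fabp6, the bile acid binding protein gene of the ileum, was at 17.7, 36.7 and 150.1 CPM in wild type and at 40.1, 125 and 52.7 CPM in knockout. Slc10a2, the ileal bile acid carrier gene, was at 1.83, 3.48 and 4.89 CPM in wild type and at 1.59, 5.17 and 2.79 CPM in knockout. Gata4, a factor of the proximal small intestine, was at 8.85, 26.8 and 5.90 CPM in wild type and at 9.52, 9.64 and 12.6 CPM in knockout. Wild-type library 3 was thus highest in Fabp6 and lowest in Gata4 and in Lct, and wild-type library 2 was highest in Gata4 and in Alpi and Anpep. Of the other proximal genes, Onecut2 was also lowest in wild-type library 3, at 0.347 CPM. Fabp1, Apoa4, Ada and Cubn were not lowest of their group there. Cyp2b10 was highest of its group there, at 0.852 CPM against 0.159 and 0.207 CPM in wild-type libraries 1 and 2. The whole list of 6 distal genes summed to 88.6, 112.6 and 226 CPM in wild type and 83.0, 178 and 108 CPM in knockout, and that of 7 proximal genes to 42.9, 61.3 and 33.5 and to 47.6, 46.7 and 33.8 CPM. The distal sum was mostly Fabp6, Muc3a and Osr2. Osr2 was at 33.9, 34.1 and 34.6 CPM in wild type and at 23.6, 29.3 and 30.3 CPM in knockout, and Fgf15, the ileal hormone gene, at 0, 0.310 and 1.51 CPM and at 0.750, 0.461 and 0.709 CPM, so knockout library 2 was not the highest of its group in either. Of the 5 tested distal genes 1 passed the edgeR test, against 0.172% of all genes. This was the mucin gene Muc3a, which fell from 36.2 ± 1.68 to 18.9 ± 2.61 CPM (edgeR adjusted p 0.0460). The part of the sampled region in the levels of the enzyme genes was not tested.

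**Figure D5:**
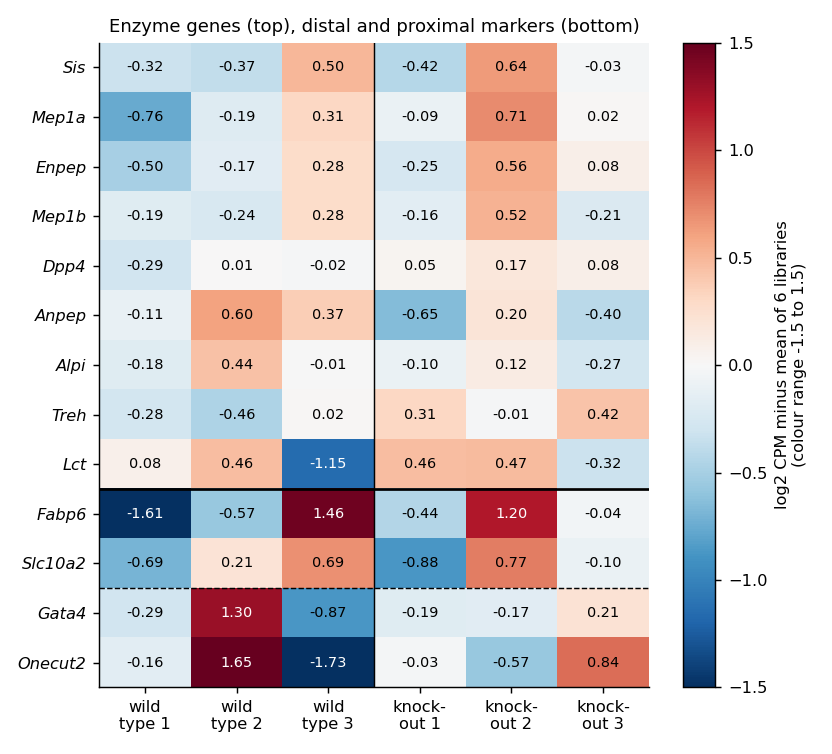
Log2 CPM minus the mean of the 6 libraries for the 9 enzyme genes (above the solid line), the distal genes Fabp6 and Slc10a2 and the proximal genes Gata4 and Onecut2 (columns: libraries; colour and number: the value; Onecut2 was chosen after its values were seen). Wild-type library 3 and knockout library 2 are high for Sis, Mep1a, Enpep and Mep1b and for Fabp6, and Lct is lowest in wild-type library 3 at -1.15. Of the listed regional genes not shown, Osr2, Fgf15 and Muc3a were not highest of their group in knockout library 2. Fabp1, Apoa4, Ada, Cubn and Cyp2b10 were not lowest of their group in wild-type library 3.

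By the same measure the genes with a profile nearest to the mean of the 9 members were Emc3, Perp, Stt3b, Psmb10 and Ebag9. Their root mean square differences were 0.0435 to 0.0701, where the median over 4747 protein-coding genes of at least 10 CPM was 0.296. The members themselves lay 0.125 (Dpp4) to 0.604 (Lct) from their own mean, 3 of them (Anpep, Lct and Treh) farther and 6 nearer than that median. None of the 5 passed the edgeR test (adjusted p 0.614 to 0.785).

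Long transcripts tended to be lower in the knockout libraries, and the members were read against that trend. In the eighth of genes with the longest transcripts, 5888 bases and more, which holds Sis and Lct, the median log2 fold change was -0.19. Anpep and Enpep were in the sixth eighth with a median of -0.08, Dpp4 in the seventh with -0.11, Mep1a in the fourth with 0.02, and Alpi, Mep1b and Treh in the third with 0.08. With transcript length and GC content corrected for, the log2 fold changes were -0.49 for Anpep, 0.17 for Sis, 0.50 for Lct, 0.26 for Enpep, 0.22 for Dpp4 and 0.35 for Mep1a. For Mep1b the value was then -0.0202, for Alpi -0.23 and for Treh 0.43, and the edgeR test called 0 of 9, with 0 at an unadjusted p under 0.05.

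Other genes of the brush border and of enterocytes were examined from lists of known function. Of 13 tested genes of other brush border hydrolases, 0 passed the edgeR test, and 1 had an unadjusted p under 0.05, against 15.2% of all genes. This was Asah2, which encodes the neutral ceramidase of the microvilli, at 14.9 ± 2.46 CPM in wild type against 8.91 ± 0.901 CPM in knockout, without overlap (edgeR adjusted p 0.116). Mgam, which encodes maltase-glucoamylase, the partner of Sis in starch digestion, was at 508 ± 13.8 and 461 ± 29.5 CPM. Ace, the angiotensin-converting enzyme gene, whose exons overlap those of an antisense gene, was at 13.2 ± 2.73 and 10.4 ± 0.430 CPM, and Cndp2, the gene of a dipeptidase of the cytosol rather than the membrane, at 10.52 ± 3.65 and 12.7 ± 2.36 CPM.

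Of 12 genes of carriers for sugars, amino acids and peptides 0 passed, and 1 had an unadjusted p under 0.05. Slc6a20a, a carrier of imino acids whose exons overlap those of Ccr9, was at 6.30 ± 1.299 CPM in wild type against 10.2 ± 1.80 CPM in knockout, without overlap (edgeR adjusted p 0.193). Slc7a8, a carrier of neutral amino acids, was at 24.0 ± 2.57 and 17.8 ± 5.56 CPM. The 14 genes of lipid handling and enterocyte maturity had 0 called and 4 at an unadjusted p under 0.05, 3 of them higher, where 15.2% of all genes reached that p. Among them were Prap1, whose exons overlap those of Fuom (40.6 ± 7.23 to 55.1 ± 5.47 CPM, wild type to knockout), the apolipoprotein gene Apoa1 (59.1 ± 4.89 to 84.8 ± 27.6) and, with the opposite sign, Fabp1 (5.69 ± 2.16 to 2.83 ± 0.700).

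Of 14 genes of microvillus structure 0 passed, and 12 had a negative log2 fold change, against 50.5% of all genes tested. Their median was -0.22 where the median over all genes was -0.01. Espn, which encodes the actin bundling protein espin, was at 3.23 ± 0.620 CPM in wild type against 1.60 ± 0.294 CPM in knockout (edgeR adjusted p 0.219). Cdhr5, a cadherin of the microvillus tips, was at 126 ± 16.5 and 97.9 ± 18.1 CPM. Of 15 enterocyte transcription factors 0 passed, 11 had a negative log2 fold change and the median was -0.25, with 1 at an unadjusted p under 0.05. The values of both lists were not corrected for transcript length, and the part of the length trend in them was not tested. Cdx2 was at 17.9 ± 7.399 and 11.9 ± 2.19 CPM. DESeq2's Wald test called 1 of the 13 other hydrolases, Asah2, as lower, and 0 among the carriers, the lipid and maturity genes, the microvillus genes and the transcription factors, where it called 3.84% of all genes. It gave no adjusted p for 1 hydrolase, 2 carriers, 1 lipid or maturity gene and 2 transcription factors.

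Crypt cells of other kinds were measured beside them. Of 10 genes of crypt epithelium 0 passed the edgeR test and 3 (Mki67, Lyz1 and Krt8) had an unadjusted p under 0.05, against 15.2% of all genes. Groups without overlap were seen in 20.9% of all genes tested. Mki67, a gene of dividing cells, was at 355 ± 46.0 CPM in wild type against 201 ± 32.9 CPM in knockout, and Lyz1, the lysozyme gene of Paneth cells, at 468 ± 107 and 1068 ± 476 CPM, each without overlap (edgeR adjusted p 0.0628 and 0.0925); DESeq2's Wald test called 1 of the 10, Mki67, as lower. The stem cell gene Olfm4 was at 801, 825 and 521 CPM in wild type and at 1161, 560.2 and 904 CPM in knockout, lowest in wild-type library 3 and knockout library 2, where Sis was highest. Markers of pancreatic acinar cells, another source of digestive enzymes, were found for 7 of 11 and summed to 1.75 to 2.40 CPM in wild type and 2.36 to 4.13 CPM in knockout, most of it from Cela1. The part of cell composition in the levels of the enzyme genes was not tested.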

How the data were processed

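RNA of 6 samples was measured, 3 wild-type and 3 Apln knockout. Per the labels' protocols, amplification used the Nugen Ovation Pico kit and libraries the Nextera DNA Flex kit. The submitters' processing notes list STAR 2.6.1, HTSeq and mm10, while annotation release and strand setting were not given in the sources used here. Raw read counts per Ensembl gene make up the deposited file, whole numbers with totals that differ between libraries; 0 columns were without a sample, and the knockout columns named KO1, KO3 and KO4 are replicates 1, 2 and 3 by their labels. Symbols, positions and transcript lengths came from GENCODE M21 (GRCm38), which matched 28551 identifiers and left 13 without a symbol.

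The fit used edgeR 4.0.16 under R 4.3.3: filterByExpr (count minimum 10, total minimum 15), TMM scaling, glmQLFit and glmQLFTest with no covariate, and Benjamini-Hochberg adjustment over all genes tested. The SE is the log2 fold change divided by the root of the F statistic. CPM are TMM-scaled, and log2 CPM used a prior count of 2. The ratio of Mep1a to Mep1b was compared with a two-sided exact permutation test, and the other ratios carry no test. Floors of 3 counts cover counting error only: no molecular identifiers are recorded, so reads need not be separate molecules. Libraries of one group differed by more than sampling noise (chi-square per degree of freedom 7.36 to 30.0).

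The members and lists were chosen with earlier results of these data known. Named are the 9 members, Apln, genes of each list that passed or had among the lowest p (up to 4), the most abundant genes of other cell types (up to 3) and the 5 genes nearest in profile; Krt20, Vil1, Onecut2, Akp3, Fgf15, Olfm4, Cd44, Pecam1, Epcam and others marked or listed only by their library order were named outside this rule. Some genes and a motif are not reported here. Alternatives were DESeq2 1.42.0 size factors and Wald test, upper-quartile scaling, other filters, the replicate number as a block, offsets for transcript length and GC content (mgcv splines per library), leaving out the 5 most abundant entries and leaving out each library. On simulated counts (14582 genes tested) edgeR found 4.17% of genes changed 1.5-fold, 42.0% of those changed 2-fold and 83.3% of those changed 4-fold; 9 of its 100 calls were false. The labels call the samples biological replicates without saying which animals they came from, so p-values measure the spread between these samples.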

Additional observations from a re-analysis of the deposited data

How the results depend on the processing

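Over 14 alternatives the edgeR fits and DESeq2's Wald test called 0 of the 9 enzyme genes, although the count over all genes moved widely from the 26 of 15122 reported. It was 1 with DESeq2 size factors, with upper-quartile scaling, with the length and GC correction and without the 5 most abundant entries. It was 117 with a filter of 1 CPM in 3 libraries, which left 8 of the 9 members, 629 with no filter, 581 with DESeq2's Wald test and 0 to 358 when 1 library was left out. With the replicate number as a block it was 173, and Anpep had an adjusted p of 0.0856. Same-numbered libraries correlated at 0.0109 to 0.0569 in their deviations, and all but knockout library 3 correlated best with their own number. The labels do not say whether the numbers pair the samples, and correlations over so few libraries cannot decide it. The sign of single members turned when 1 library was left out, with ranges of -0.33 to 0.0038 for Alpi, -0.21 to 0.48 for Sis, -0.0279 to 0.67 for Lct and -0.16 to 0.31 for Mep1b, and Mep1b was at -0.0202 after the length and GC correction; the cause was not tested. Anpep, Dpp4, Enpep, Mep1a and Treh did not change sign, but with 1 library left out they ranged from -0.83 to -0.39, 0.0948 to 0.24, 0.022 to 0.50, 0.12 to 0.71 and 0.39 to 0.68, Enpep and Mep1a being lowest without knockout library 2. The log2 ratio of the meprin genes differed by 0.12 to 0.44 and the summed level by -119.0 to 2.93 CPM when 1 library was left out. Few counts limit Treh (140 over all libraries), and DESeq2 gave no adjusted p for 1 member.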

Other observations

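The order of libraries seen in Sis, Enpep, Mep1a and Mep1b was looked for in the other lists, after it had been seen. Wild-type library 3 and knockout library 2 were the 2 highest libraries for 4 of 13 other brush border hydrolases, among them the dipeptidase genes Naaladl1 and Dpep1 and the sphingomyelinase gene Enpp7. The same held for 2 of 12 carriers (Slc5a1, the sodium-glucose carrier gene, and Slc7a9), for 3 of 14 genes of microvillus structure (Vil1, Ezr and Anks4b) and for 1 of 14 genes of lipid handling and maturity. That gene was Krt20, a keratin gene of mature enterocytes, at 60.2, 53.2 and 115 CPM in wild type and 42.9, 88.1 and 49.2 CPM in knockout. It also held for Fabp6 and Slc10a2 of 5 tested distal genes and for 0 of 7 proximal genes. The order was not limited to brush border and distal genes. It was seen in 3 of 10 genes of crypt epithelium (Epcam, Krt8 and Cdh1) and in 1 of 15 enterocyte transcription factors (Maf). Of the tested T cell, myeloid, stromal and acinar genes 0 had it. Over all genes tested the share was 6.43%.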
